A study of Mus musculus with 6 samples.

Results

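Fabp4 and 9 further genes of lipid handling under the nuclear receptors PPARG and LXR were followed in mouse cells with and without knockdown of CTCF. The genes were Fabp4, Fabp5, Pparg, Cd36, Lpl, Plin2, Abca1, Abcg1, Nr1h3 and Scd2, 10 of the 24732 gene symbols with an FPKM value (fragment counts scaled to transcript length and to the number of mapped fragments). They were chosen by symbol and for how they differed between control and knockdown samples in these same values, so their differences are given as a description without a test. RNA-seq was made of cells labelled female germline stem cells (FGSC), a stem cell culture derived from the ovary. The labels give 3 control and 3 shCTCF samples, all of strain C57BL/6 and at more than 20 passages. All were grown on inactivated STO cells, a mouse embryonic fibroblast line used as feeder layer. According to the study's methods the cells came from ovaries of neonatal Ddx4-Cre;mT/mG mice, and the knockdown group received a lentivirus with a short hairpin RNA (shRNA), of which the same sequence was used throughout, followed by puromycin selection. What the control group received is not given in the labels, and neither do these say whether the replicates were separate cultures, so that p-values measure only the spread between these samples, which may be technical.

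PPARG is a nuclear receptor that binds fatty acids and their derivatives, pairs with a retinoid X receptor on DNA and is known as the main switch of fat cell formation. LXR, of which Nr1h3 encodes the alpha form, binds oxidised sterols, also pairs with a retinoid X receptor and turns on genes that export cholesterol and make fatty acids. Both are known to act together in lipid-laden macrophages, where Fabp4, Cd36, Abca1 and Abcg1 are familiar targets.

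Total counts per sample lay between 1686052, in control replicate 2, and 7044272, in control replicate 3. Ctcf, the targeted gene, had 58.2, 56.1 and 53.5 FPKM in controls, against 0.740, 0.550 and 0.629 FPKM in shCTCF samples. In FPKM the knockdown samples were thus all far below the controls, as the labels say. The count table held 0 fragments of Ctcf in all 6 samples, controls included, and gives no second reading. The difference of Ctcf on log2(FPKM + 1) was -5.12 (SE 0.09, adjusted p of limma 1.1e-08).

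The labelled cell type was checked with marker lists. Of 12 female germline markers, 7 were listed at 0 FPKM in all 6 samples (Dppa3, Gfra1, Sall4, Lin28a, Nanos3, Dnd1 and Tfap2c) and 11 were below 1 FPKM in all samples. Of these 7, the count table held 1 fragment of Dppa3 and 1 to 12 fragments of Dnd1 per sample, and none of the other 5. Ddx4, the classical germline marker, was listed at 0 in all controls and at 0.182, 0.160 and 0.0321 FPKM in the shCTCF samples. The summed level of the list was 0.0694 to 1.27 FPKM in controls and 11.3 to 12.2 FPKM in shCTCF samples. Nearly all of it was Ifitm3, except in control replicate 2, where Ifitm3 was at 0 and the sum of 0.0694 FPKM was that of Prdm1. The germline markers other than Ifitm3 were therefore below 1 FPKM in all samples labelled FGSC. Prdm1 had 0.738, 0.807 and 0.821 FPKM in shCTCF samples, with 41, 42 and 51 fragments, against 5, 1 and 5 fragments in controls. According to the study, RT-PCR of its cultured FGSCs detected germline genes, among them Dazl and Gfra1, and staining showed the germline protein MVH. The mast cell and basophil list was mixed, with Kit (541 to 612 FPKM in controls), Gata2 (467 to 550 FPKM) and Cpa3 (215 to 316 FPKM) at high levels, while 4 of its 11 genes, Fcer1a, Ms4a2, Tpsb2 and Mcpt4, were below 1 FPKM in all samples. For Kit the counts were 0, 0 and 3 in controls and 0, 1 and 1 in shCTCF samples, so its FPKM has no second reading.

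The study compared the groups in order to learn what the loss of CTCF does in these cells. In the FPKM values, 8 of the 10 genes had all shCTCF values above all control values, 1 (Scd2) had all of them below, and Lpl was listed at 0 in every sample. Of 15378 genes above 0 FPKM in any sample, 27.8% had all shCTCF values above the controls, 31.7% had all of them below, and 3.61%, with Fabp4, Pparg and Cd36 among them, were listed at 0 in all controls and above 0 in all shCTCF samples. Only 6 of the 10 genes reached an average of 1 FPKM over the samples and entered the fit across all genes, while Pparg, Lpl, Abca1 and Nr1h3 lay under this filter. Fabp4 and Cd36 reached this level only through the shCTCF samples. Estimates at least 2-fold higher were found for 4 of them (Fabp4, Cd36, Plin2 and Abcg1), against 11.4% of the 9976 genes in the fit, and an estimate at least 2-fold lower for Scd2, against 15.1%. Since the genes were picked from this contrast, nothing is read from these counts. The median log2 fold change over all genes was -0.17 on FPKM, and the values of single genes below are relative to samples as deposited, not to this shift.

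**Figure D1:**
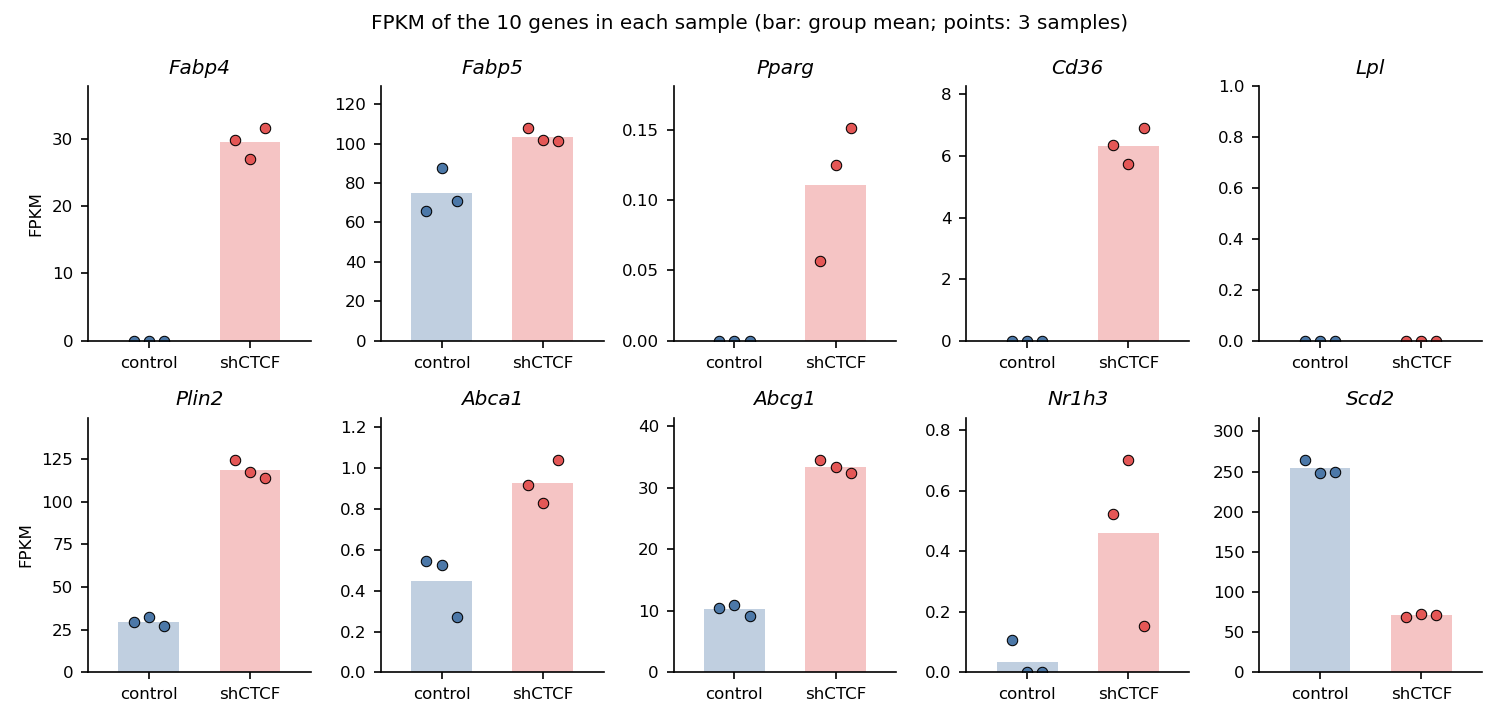
FPKM of each of the 10 genes in the 3 control and 3 shCTCF samples on linear axes that start at 0, with bars for group means and points for samples. Fabp4, Pparg and Cd36 are at 0 in the controls, Lpl is at 0 in all samples, and Scd2 is the only gene with the shCTCF samples below the controls.

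Fabp4 encodes the fatty acid binding protein of fat cells and macrophages, a small cytosolic carrier that brings fatty acids to PPARG. It lies at chr3:10204343-10208616 on the minus strand of mm9, with 1 transcript accession of 681 exon bases that no other accession shares. Control samples had 0, 0 and 0 FPKM, against 29.8, 26.9 and 31.5 FPKM in shCTCF samples. The count table, which was made separately from the same reads, gave 0, 0 and 0 fragments in controls, against 225, 184 and 265 fragments in shCTCF samples. The groups did not overlap in either table, and the 3 knockdown samples were close to each other. After scaling to library size with TMM factors the shCTCF mean was 39.8 ± 2.67 CPM (scaled counts, SD, n = 3). With 3 counts per library as the smallest value treated as detected, which was 1.67 CPM in the smallest control library, Fabp4 was at least 23.8-fold higher in the mean of the shCTCF group. By library size without TMM factors this bound was 20.9-fold. These bounds cover counting error only, since copies of a fragment made by PCR were not told apart.

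A listing at 0 FPKM needs care in this table. Among the genes tested, 26 (0.261%) were listed at 0 in all controls and had at least 5 FPKM in the shCTCF mean. Of these 26 genes, 5 had more than 3 counts in every control. Usp16, a deubiquitinase gene that was singled out after its values were seen, was listed at 0 FPKM in all controls although 654, 134 and 621 fragments were counted there. For 8 of the 26 genes, Fabp4 among them, the count table also had 0 in all controls and more than 3 counts in every shCTCF sample. For 8 others, Cd36 among them, the count table had 0 in all 6 samples and gives no second reading.

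Fabp5 encodes the epidermal fatty acid binding protein, the closest companion of Fabp4 in macrophages and fat cells. It lies on the same chromosome, at chr3:10012585-10016610 on the plus strand of mm9. Control samples had 65.8, 87.6 and 71.0 FPKM, against 107.6, 101.7 and 101.2 FPKM in shCTCF samples. The controls varied more than the knockdown samples, with control replicate 2 the highest of them, but the groups did not overlap. The means were 74.8 ± 11.3 and 103.5 ± 3.57 FPKM (SD, n = 3 each), a ratio of 1.38, and the log2 fold change was 0.47 (SE 0.10). All of this FPKM was placed on the accession NM_010634, and the other 2 accessions were at 0. Because every exon base of the 3 accessions is also covered by another accession, none of them received a count in any sample. The sum of Fabp4 and Fabp5 was between 65.8 and 87.6 FPKM in controls and between 129 and 137 FPKM in shCTCF samples. Within this sum, Fabp4 took 21.7%, 20.9% and 23.7% in the 3 shCTCF samples. No other member of the family was at a comparable level: of 8 further fatty acid binding protein genes, 7 were listed at 0 in all samples and Fabp9 reached 0.156 FPKM in 1 shCTCF sample.

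Pparg and Nr1h3, the receptor genes of this set, were barely present. Pparg (chr6:115310969-115440419, plus strand, mm9) was listed at 0 in all controls and at 0.0571, 0.125 and 0.151 FPKM in the shCTCF samples. Most of this was on NM_011146, the accession that starts farthest inside the gene and that encodes the longer, fat cell form PPARG2, with 0.0452, 0.0960 and 0.128 FPKM, and the rest, 0.0118, 0.0289 and 0.0224 FPKM, was on NM_001308354. The accession NM_001127330, with the outermost start of the gene, was at 0 in all samples. Nr1h3 (chr2:91024218-91035273, minus strand, mm9) was at 0.107, 0 and 0 FPKM in controls, against 0.525, 0.701 and 0.154 FPKM in shCTCF samples. Both receptors had all shCTCF samples above the controls, with the lowest shCTCF sample of Nr1h3 only just above the highest control. Neither had a count in any sample, and their accessions left only 526 and 234 exon bases, respectively, that were not shared. At levels below 1 FPKM these values lay under the filter of the fit and no estimate is given. Several other receptors of these families were present. Nr1h2, the beta form of LXR, averaged 25.2 FPKM in controls and 20.1 FPKM in shCTCF samples. Ppard averaged 14.7 and 20.9 FPKM, Rxra 9.65 and 13.1 FPKM, and Rxrb 36.9 and 18.0 FPKM. Ppara reached at most 0.0370 FPKM, and Rxrg was listed at 0. Of these, Nr1h2 and Rxrb had 0 counts in all 6 samples and no second reading.

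Cd36 encodes a scavenger receptor and fatty acid translocase, which takes up oxidised lipoproteins and long-chain fatty acids. The gene lies at chr5:17287508-17394777 on the minus strand of mm9. It was listed at 0 in all controls and at 6.35, 5.75 and 6.90 FPKM in the shCTCF samples. The knockdown samples were within a narrow range, whereas the listing at 0 cannot be checked, since the count table had no fragment for Cd36 in any sample and only 249 exon bases of its 5 accessions were not shared. The FPKM was spread over 3 accessions. NM_001159556 had 5.53, 4.01 and 2.36 FPKM, NM_001159557 had 0.821, 1.12 and 2.66 FPKM, and NM_007643 had 0, 0.615 and 1.88 FPKM in shCTCF replicates 1, 2 and 3. The total was therefore steadier between samples than its division among transcripts.

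The bases before the start of 2 genes that were higher in shCTCF samples are printed to show what the window before each start holds: Cd36, listed at 0 in controls, and Abca1, the LXR target whose start has the same distance to the far end of the gene as in mm9. They were read from RefSeq promoter windows of GRCm38.p6, in which 5 of the 10 genes were found (Pparg, Cd36, Plin2, Abca1 and Nr1h3). Both windows are the 250 bases before a start and lie on the minus strand, at chr5:17835897-17836146 for Cd36 and chr4:53159896-53160145 for Abca1. Capitals mark AGGTCA, the core motif bound by PPARG, LXR and retinoid X receptors, or TATAAA, the TATA box, on either strand.
Cd36: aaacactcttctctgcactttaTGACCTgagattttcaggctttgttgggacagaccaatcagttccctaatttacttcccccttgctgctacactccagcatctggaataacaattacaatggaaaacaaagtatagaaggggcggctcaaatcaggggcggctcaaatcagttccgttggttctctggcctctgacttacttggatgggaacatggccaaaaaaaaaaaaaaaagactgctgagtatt
Abca1: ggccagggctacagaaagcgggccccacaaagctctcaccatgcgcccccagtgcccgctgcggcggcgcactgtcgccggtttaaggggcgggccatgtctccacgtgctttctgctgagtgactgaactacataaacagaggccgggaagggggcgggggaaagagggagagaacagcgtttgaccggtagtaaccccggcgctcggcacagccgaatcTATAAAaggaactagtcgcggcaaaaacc
The Cd36 window holds the core motif in reverse, from 228 to 223 bases before the start, and the Abca1 window holds TATAAA, from 29 to 24 bases before it. Among all 32851 windows of this length, 14.0% held AGGTCA and 12.4% held TATAAA on either strand. The paired motifs AGGNCANAGGNCA, known as the PPAR type, and AGGNCANNNNAGGNCA, known as the LXR type, each of which contains the looser core AGGNCA, were in 0.338% and 0.213% of all windows and in none of the 8 windows of these genes. A match is a description of the letters, not a binding site. Fixed patterns of this kind miss any site whose letters differ from them. The lack of a paired match in the 8 windows, that of Abca1 included, therefore does not show that a binding site is absent. The Plin2 window, 1 of these 8, belongs to a start 43150 bases from the far end of the gene, whereas the mm9 accession that was measured spans 13495 bases. The Cd36 start belongs to the accessions that span 54207 bases, while NM_001159556 and NM_001159557 start elsewhere and span 68103 bases.

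Lpl encodes lipoprotein lipase, which frees fatty acids from circulating triglycerides and is a classical PPARG target. It lies at chr8:71404454-71430831 on the plus strand of mm9 and was listed at 0 FPKM in all 6 samples. The count table held 1 fragment in control replicate 1 and 0 in the other 5 samples, although all 4049 exon bases of its accession were free of overlap. Lpl was thus not detected at this depth in either group.

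Plin2 encodes perilipin 2, the coat protein of lipid droplets in most cells outside fat tissue. It lies at chr4:86302469-86315963 on the minus strand of mm9. Control samples had 29.3, 32.2 and 26.9 FPKM, against 124, 117 and 114 FPKM in shCTCF samples. The groups were far apart, with means of 29.5 ± 2.64 and 118 ± 5.44 FPKM (SD, n = 3 each), which is a 4.02-fold difference. The log2 fold change was 1.97 (SE 0.08) on FPKM and 2.22 (SE 0.09) on counts, where the fragments were 681, 186 and 656 in controls and 2591, 2233 and 2742 in shCTCF samples. Among the 9976 genes tested, the mean level of Plin2 ranked 2792 in the controls and 562 in the shCTCF group, so that in the latter it was the highest of the 10 genes.

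Abcg1 and Abca1 encode the transporters that pass cholesterol to high density lipoprotein and to lipid-poor apolipoprotein, respectively, and both are standard LXR targets. Abcg1 (chr17:31194639-31254926, plus strand, mm9) had 10.5, 11 and 9.23 FPKM in controls, against 34.5, 33.4 and 32.4 FPKM in shCTCF samples. Every knockdown sample was well above every control, and the means were 10.2 ± 0.904 and 33.4 ± 1.05 FPKM (SD, n = 3 each), 3.27-fold apart. On counts the fragments were 755, 200 and 699 against 2182, 1941 and 2363, and the log2 fold change was 1.88 (SE 0.09), compared with 1.62 (SE 0.08) on FPKM.

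Abca1 (chr4:53043661-53172767, minus strand, mm9) was much lower, with 0.543, 0.528 and 0.271 FPKM in controls, against 0.916, 0.830 and 1.04 FPKM in shCTCF samples. The groups did not overlap, but the controls were uneven, replicate 3 being the lowest. The means were 0.448 ± 0.153 and 0.929 ± 0.106 FPKM (SD, n = 3 each), 2.08-fold apart. The FPKM mean of Abca1 lay under the filter, while on counts, with 82, 21 and 45 fragments in controls and 110, 97 and 146 in shCTCF samples, its log2 fold change was 1.151 (SE 0.23). Without control replicate 3 this estimate was 0.83. The ratio of Abcg1 to Abca1 in FPKM was 19.3, 20.8 and 34.1 in controls and 37.7, 40.3 and 31.1 in shCTCF samples, and these ranges overlapped.

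Scd2 encodes a stearoyl-CoA desaturase, which makes monounsaturated fatty acids and is induced by LXR and by SREBP1. It lies at chr19:44368166-44381352 on the plus strand of mm9. Control samples had 264, 248 and 250 FPKM, against 69.2, 72.7 and 71.1 FPKM in shCTCF samples. All knockdown samples were below all controls, the reverse of the other detected genes of the set. The means were 254 ± 8.89 and 71.0 ± 1.78 FPKM (SD, n = 3 each), so that the control level was 3.58 times that of the knockdown. The log2 fold change was -1.83 (SE 0.06) on FPKM and -1.65 (SE 0.06) on counts, where 15907, 3808 and 16224 fragments stood against 3822, 3594 and 4485. Scd2 supplied 96.8% to 98.1% of the summed FPKM of the Scd genes in every sample. Scd1, the isoform of liver and fat, fell from between 4.4 and 5.0 FPKM to between 0.982 and 1.30 FPKM (log2 fold change -1.41).

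In the counts, 5 of the 10 genes could be tested (Fabp4, Plin2, Abca1, Abcg1 and Scd2), and the other 5 had at most 1 count over all samples. Fabp4 passed the filter on low counts only through the shCTCF samples. The edgeR estimate was at least 2-fold higher for 4 of them (18.8% of the 7341 genes in the fit) and at least 2-fold lower for 1 (14.2% of these genes), and as the genes were picked from this contrast nothing is read from these shares. The median log2 fold change over all genes was -0.02 on counts. Plin2, Abcg1 and Scd2 had the same direction in both tables.

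**Figure D2:**
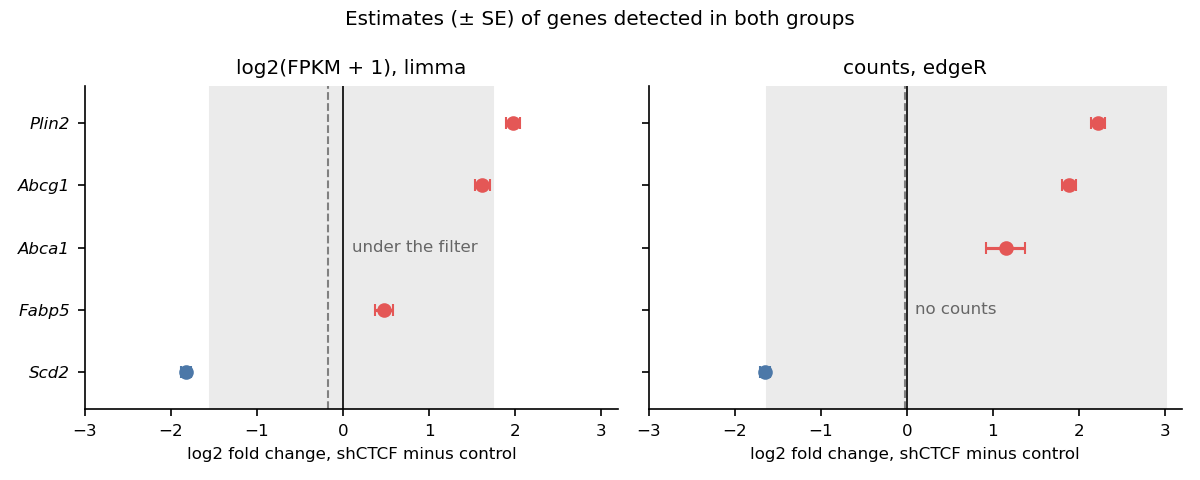
Log2 fold changes (shCTCF minus control, error bars are SE) of the 5 genes detected in both groups, from limma on log2(FPKM + 1) at left and from edgeR on counts at right, with the median of all genes dashed and their 5th to 95th percentile in grey. Abca1 has no estimate at left, where it lay under the filter, and Fabp5 has none at right, where it had no counts. Plin2 (1.97 and 2.22) and Abcg1 (1.62 and 1.88) lie right of 0 and Scd2 (-1.83 and -1.65) left of 0 in both tables.

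The order of levels within the set was not the same in both groups. In the controls Scd2 was the highest, followed by Fabp5, Plin2, Abcg1 and Abca1, and no neighbours in this order overlapped. Nr1h3 followed, and the other 4 genes were listed at 0. In the shCTCF group the order was Plin2, Fabp5, Scd2, Abcg1, Fabp4, Cd36, Abca1, Nr1h3, Pparg and Lpl, and here too no neighbours overlapped in FPKM. Scd2 ranked 226 among the 9976 genes tested in the controls and 1015 in the shCTCF group, whereas Fabp5 ranked 1035 and 664. Within groups, the SD of the genes above 1 FPKM was between 2.51% and 15.2% of the mean.

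Fabp4 stands in a cluster of related genes, and the surroundings of its start were examined over 250 kb to each side. The window held 10 other genes, of which 5 were below 1 FPKM in all samples. These included the fatty acid binding protein genes next to it, namely Pmp2 at 24.7 kb and Fabp9 at 11.3 kb on 1 side and Fabp12 at 45.6 kb on the other, of which Pmp2 and Fabp12 were at 0 in all samples. Slc10a5, at 127 kb, was also at 0, and Chmp4c, at 158 kb, was listed at 0 in the controls and reached at most 0.348 FPKM.

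Among the neighbours that were tested, Snx16, a sorting nexin of endosomes at 232 kb, rose from 2.47 ± 0.55 to 8.36 ± 1.39 FPKM (log2 fold change 1.43, adjusted p of limma 8.8e-05). Gm9833, at 120 kb, fell from 8.64 ± 1.73 to 3.09 ± 0.72 FPKM (log2 fold change -1.24, adjusted p 4.1e-04). Impa1, an inositol monophosphatase gene at 123 kb, had 12.6 ± 1.19 and 11.1 ± 0.90 FPKM and did not pass the test (adjusted p 0.159). Zfand1, at 143 kb, had 0.672 and 1.29 FPKM on average and was not tested. Fabp5, at 196 kb, is described above. Of all genes tested on FPKM, 28.8% passed in the higher and 44.2% in the lower direction.

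**Figure D3:**
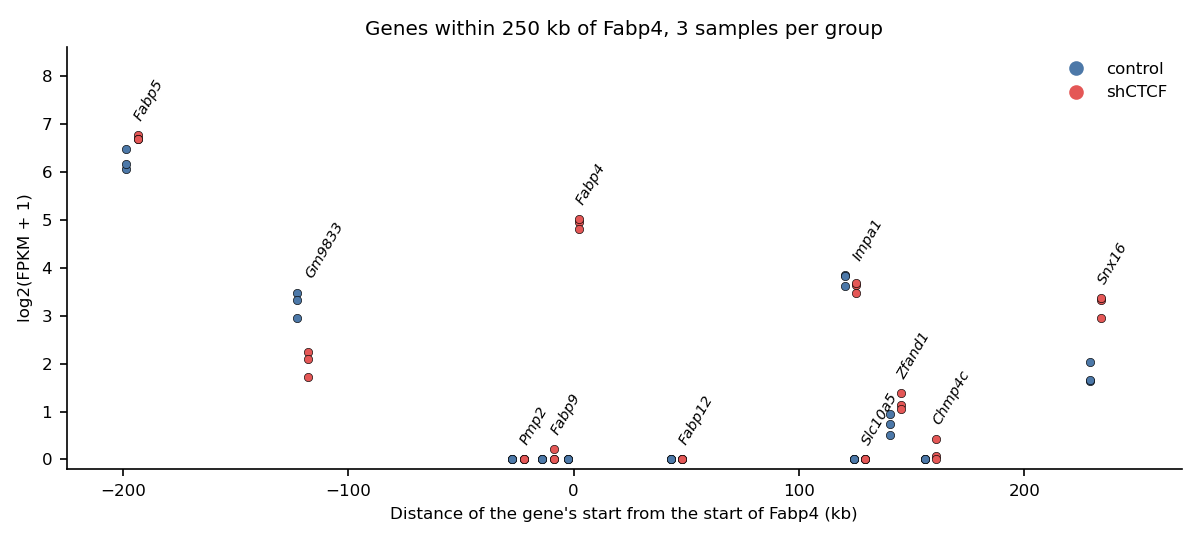
Log2(FPKM + 1) of the 11 genes within 250 kb of Fabp4 by distance of their start from that of Fabp4, with 3 control and 3 shCTCF samples as points. Fabp4 is at 0 in controls and at 26.9 to 31.5 FPKM in shCTCF samples, while Pmp2, Fabp9, Fabp12, Slc10a5 and Chmp4c stay below 1 FPKM.

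The genes whose levels were most like that of Fabp4 were sought among 6721 genes whose higher group reached 10 FPKM on average, by Pearson's r of log2(FPKM + 1) over the 6 samples. The 5 nearest were Odr4 (r = 0.999967), Aldh7a1 (0.999934), Scpep1 (0.999856), Usp16 (0.99982) and Nts (0.99971). As 600 genes had an r of at least 0.99 and the samples form 2 groups, the measure mostly tells high from low groups. Odr4, Aldh7a1 and Usp16 were listed at 0 FPKM in the controls, and Usp16 was counted there as given above. Aldh7a1 had 2, 0 and 7 fragments in controls and 8, 8 and 6 in shCTCF samples. Odr4 had 0 counts in all 6 samples, so its FPKM has no second reading. Scpep1, a serine carboxypeptidase gene, rose from 26.2 ± 0.448 to 89.0 ± 2.91 FPKM. Nts, which encodes the peptide neurotensin, had 0, 0 and 0.0736 FPKM in controls and 196, 181 and 187 FPKM in shCTCF samples.

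The rest of the pathway was described with 9 lists that leave out the 10 genes. They held 165 genes, of which 94 were tested on FPKM and 75 passed (79.8%, against 73.0% of all genes), 32 higher and 43 lower. With each sample scaled to the same median the split was 37 higher and 33 lower. On counts 67 were tested and 48 passed in edgeR, where 69.1% of all genes did, 26 higher and 22 lower. In all, 43 genes passed in both tables, which come from the same reads, each in the same direction. The median log2 fold change of the list genes was -0.19 on FPKM, beside -0.17 for all genes. Over all genes tested on FPKM, 28.8% passed higher and 44.2% lower, so more genes lower than higher is also the background of the lists.

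Among 24 receptors and coregulators, 19 were tested on FPKM, of which 4 were higher, 10 lower and 5 not called, a split that was 6 and 6 after scaling to the same median and 4 and 2 on counts. Ncoa2, a coactivator of nuclear receptors, rose from 25.0 ± 0.0574 to 57.2 ± 0.275 FPKM (log2 fold change 1.16, adjusted p of limma 1.5e-06). Cebpb, a transcription factor of early fat cell formation and of macrophages, rose from 75.1 ± 7.51 to 154 ± 9.22 FPKM. Med1, the Mediator subunit that contacts PPARG, fell from 27.3 ± 2.00 to 12.5 ± 0.170 FPKM, and Gps2, a subunit of the corepressor complex of these receptors, from 31.9 ± 4.0 to 15.1 ± 0.576 FPKM.

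Of 24 other PPAR target genes only 10 were tested, with 4 higher, 3 lower and 3 not called on FPKM and 3 higher and 3 lower on counts. Ucp2, a carrier of the inner mitochondrial membrane, rose from 178 ± 13.2 to 746 ± 23.3 FPKM (log2 fold change 2.06, adjusted p of limma 2e-07). Acsl1, which activates long-chain fatty acids, rose from 9.63 ± 0.607 to 25.5 ± 1.12 FPKM. Cpt1a, which admits fatty acids to mitochondria, fell from 20.5 ± 0.362 to 5.30 ± 0.30 FPKM (log2 fold change -1.77). Angptl4, a secreted inhibitor of lipoprotein lipase, fell from 5.20 ± 0.106 to 2.19 ± 0.374 FPKM.

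Of 17 other LXR target genes 6 were tested on FPKM, with 3 higher, 2 lower and 1 not called. Mylip, whose product marks the LDL receptor for degradation, rose from 6.17 ± 1.37 to 9.08 ± 0.122 FPKM (log2 fold change 0.51, adjusted p of limma 0.00998). Apoe, the apolipoprotein of macrophage cholesterol export, rose from 4.29 ± 1.10 to 7.61 ± 0.765 FPKM on FPKM (adjusted p 0.0051) but did not pass on counts (adjusted p of edgeR 0.22). Srebf1, the transcription factor of fatty acid synthesis, fell from 21.6 ± 2.80 to 10.3 ± 0.531 FPKM and was not tested on counts.

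Fatty acid synthesis and desaturation was the list with the lowest median. Of 14 genes tested, 4 were higher and 9 lower on FPKM, with a median log2 fold change of -0.66. On counts 3 were higher and 6 lower. Fads2, a desaturase that begins the synthesis of polyunsaturated fatty acids, fell from 37.1 ± 4.76 to 8.52 ± 0.386 FPKM (log2 fold change -1.99, adjusted p of limma 1.6e-06). Elovl5, which elongates polyunsaturated fatty acids, rose from 37.4 ± 5.82 to 127 ± 3.06 FPKM (log2 fold change 1.74). Fads3 rose from 3.90 ± 0.103 to 9.77 ± 0.897 FPKM.

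Of the genes of uptake and activation of fatty acids, 12 were tested on FPKM, with 6 higher and 4 lower. Acsl4, which prefers arachidonic acid, rose from 28.8 ± 8.12 to 117 ± 5.91 FPKM (log2 fold change 2.02, adjusted p of limma 4.1e-05). Lmf1, needed to mature lipoprotein lipase in the endoplasmic reticulum, fell from 20.3 ± 2.19 to 11.4 ± 1.11 FPKM. Among 18 tested genes of lipid droplets and triglyceride turnover, 8 were higher and 7 lower. Pnpla2, the lipase that opens triglyceride breakdown, rose from 34.9 ± 4.34 to 104 ± 6.39 FPKM (log2 fold change 1.56, adjusted p 4.1e-06). Bscl2, or seipin, which shapes nascent droplets, rose from 5.60 ± 0.284 to 16.4 ± 0.890 FPKM. Hilpda, a droplet protein that inhibits Pnpla2, fell from 28.3 ± 3.69 to 4.29 ± 0.612 FPKM (log2 fold change -2.47), and Gpam, which begins glycerolipid synthesis, from 6.59 ± 0.341 to 1.80 ± 0.0538 FPKM.

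Fatty acid oxidation had 21 tested genes with 5 higher and 11 lower on FPKM, and 5 higher and 8 lower of 17 tested on counts. After scaling to the same median its FPKM split was 6 higher and 9 lower. Hadh, a dehydrogenase of mitochondrial oxidation, fell from 87.4 ± 2.65 to 17.7 ± 1.72 FPKM (log2 fold change -2.25, adjusted p of limma 3.3e-07). Eci2, an isomerase for unsaturated fatty acids, rose from 36.8 ± 2.90 to 105 ± 2.29 FPKM (log2 fold change 1.49), and Acaa2, a thiolase of the same pathway, from 27.7 ± 0.658 to 43.8 ± 2.15 FPKM. Sterol transport and efflux had 11 tested genes with 5 higher and 4 lower on FPKM, and 5 higher and 2 lower on counts. Npc1 and Npc2, which together release cholesterol from lysosomes, rose from 33.4 ± 0.599 to 104 ± 1.84 FPKM and from 36.3 ± 4.41 to 75.1 ± 1.51 FPKM. Soat1, which stores cholesterol as esters, fell from 33.1 ± 3.41 to 17.4 ± 0.298 FPKM, and Osbp, a sterol carrier between membranes, from 36.5 ± 1.47 to 25.6 ± 2.77 FPKM. Of the 27 pathway genes named here, 20 were tested on counts, and 19 of these passed in the same direction. They were named for passing on FPKM, and the counts come from the same reads, so this is no independent check. The 7 genes not tested on counts were Cebpb, Gps2, Acsl1, Srebf1, Pnpla2, Hilpda and Gpam, whose FPKM changes have no second reading.

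**Figure D4:**
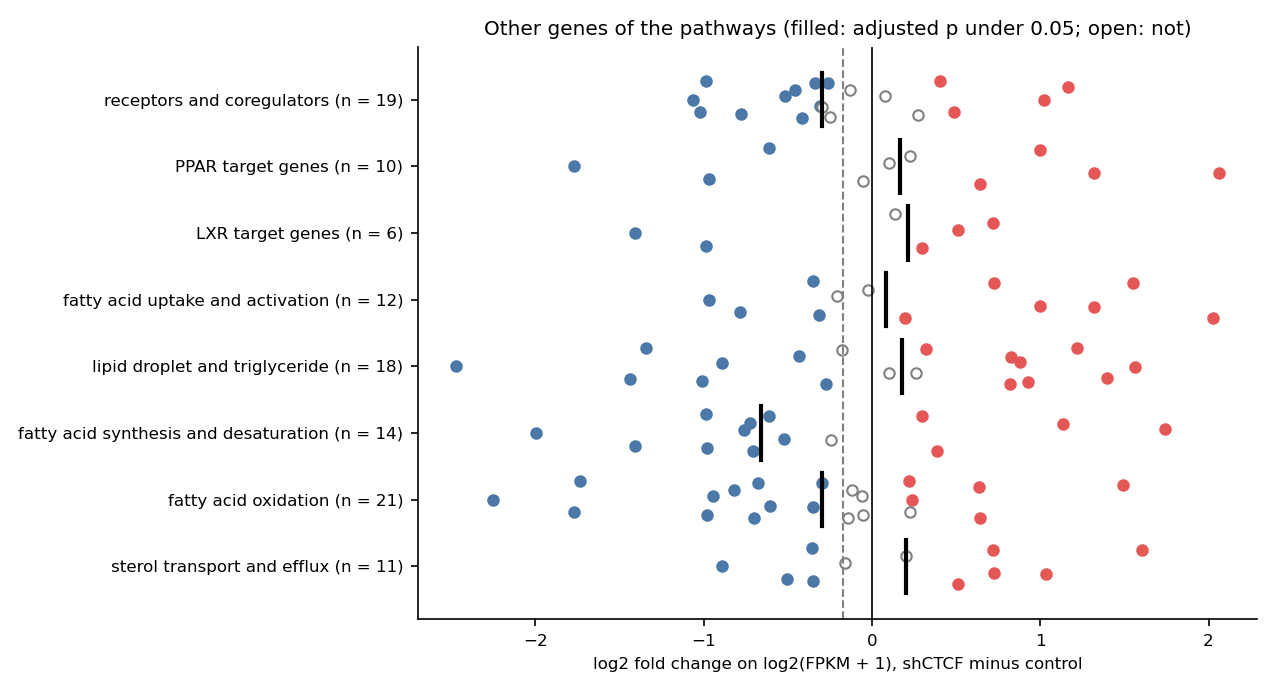
Log2 fold changes on log2(FPKM + 1) (shCTCF minus control) of the tested genes in 8 pathway lists, 1 point per gene, filled where the adjusted p is under 0.05, with list medians as black bars and the median of all genes (-0.17) dashed. The lists hold genes on both sides of 0, and the lowest median (-0.66) is that of fatty acid synthesis and desaturation.

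Markers of other cell types were at different summed levels in the groups as well. The 14 macrophage markers summed to 103 to 113 FPKM in controls and 204 to 239 FPKM in shCTCF samples, with C1qa and C1qb listed at 0 in all samples. Of these 14 genes, 10 were below 1 FPKM in all samples and 3 passed in the higher direction, Cd68 (44.7 to 137 FPKM on average), Adgre1 (56.7 to 73.7 FPKM) and Lyz2, and Fcgr1 had 5.43 and 5.26 FPKM. Adgre1 had 0 counts in all 6 samples, so its FPKM has no second reading. The 10 adipocyte markers summed to 2.47 to 3.08 FPKM and 8.64 to 9.99 FPKM, most of it Lipe, the hormone-sensitive lipase, while Lep, Adrb3, Cfd and Retn were listed at 0 FPKM in all samples and Adipoq was at most 0.0897 FPKM. The 11 mast cell and basophil markers summed to 1333 to 1387 FPKM and 1504 to 1574 FPKM, with Fcer1a at 0 in all samples. Within this list Hdc was 4.07 to 4.49 FPKM in controls and 79.7 to 94.9 FPKM in shCTCF samples, and Cpa3 was 79.3 to 103 FPKM in the latter.

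The 9 neutrophil markers summed to 131 to 169 FPKM in controls and 2.25 to 2.94 FPKM in shCTCF samples, but 8 of the 9 were below 1 FPKM in all samples, and the sum in controls was that of Ctsg, a granule protease, nearly alone. The genes Elane, Prtn3 and S100a9 were listed at 0 FPKM in all samples. The 9 endothelial markers summed to 16.9 to 19.8 FPKM and 33.1 to 38.2 FPKM, mostly Egfl7, with Cdh5, Tie1 and Emcn listed at 0 and 6 of the 9 below 1 FPKM in all samples. Egfl7 and Pecam1 passed in the higher direction and Erg in the lower (4.68 to 1.01 FPKM on average). The 17 fibroblast markers, which the feeder cells could supply, summed to 12.7 to 13.4 FPKM and 15.2 to 16.8 FPKM, with Col3a1 and Lum listed at 0. Among them 3 passed in the higher direction, Mmp2 (0.136 to 7.03 FPKM on average), Pdgfra and Thy1, and 3 in the lower, Fn1 (2.22 to 0.0266 FPKM), Pdgfrb (6.09 to 2.16 FPKM) and Dcn, which was listed at 0 in all shCTCF samples. Fabp4, Cd36, Plin2, Abca1 and Abcg1 are used by macrophages, and the part of the macrophage markers in their difference was not tested. In such bulk samples, fewer cells of a type and less RNA per cell cannot be told apart.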

How the data were processed

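RNA-seq of 3 control and 3 shCTCF samples was used, all as labelled. The authors aligned reads to mm9 with HISAT2, for which the submitters' processing notes give version 4.8.2. Fragments were counted by the authors per RefSeq accession with featureCounts 1.6.2, and these counts were deposited, without strand and without normalization, and fragments on overlapping accessions were not assigned. The FPKM values were calculated by the authors with Cufflinks 2.2.1, scaled to transcript length and depth. Accessions were joined to symbols (41186 of 41388 in the count table, unmatched ones held up to 0.603% of a library's counts) with a RefSeq table of GRCm38.p6 used for names, and values were summed per symbol.

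Genes that averaged 1 FPKM or more were tested with limma 3.58.1 (trend) on log2(FPKM + 1), a scale that understates the change of low genes. Counts were tested with edgeR 4.0.16 (quasi-likelihood, TMM, filterByExpr, R 4.3.3). Tests were two-sided, adjusted by Benjamini-Hochberg over all genes, with a threshold of 0.05, and were tested on simulated data. Total counts lay between 1686052 and 7044272. Of each pathway list, up to 2 genes that rose most and 2 that fell most were named, provided that the adjusted p was under 0.05, the groups did not overlap and the mean was at least 5 FPKM in the higher group. All genes within 250 kb of Fabp4 and the 5 most like it were named too. Alternatives were other pseudocounts, filters, scalings, DESeq2 1.42.0, the highest accession in place of the sum, a replicate block and leaving out each sample. The genes, lists and tests were chosen with earlier results of these data known. No column was left without a sample.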

Additional observations from a re-analysis of the deposited data

How the results depend on the processing

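The counts of genes at least 2-fold apart and of genes called were recomputed under each alternative. In 103 of 104 recomputed counts the value stayed within 1.5 times the one reported. The exception was the number of the 10 genes at least 2-fold lower on counts, which was 2 in place of 1 with no filter on low counts, the added gene being Lpl with its 1 fragment. The log2 fold changes of the 7 genes that could be fitted (Fabp4, Fabp5, Cd36, Plin2, Abca1, Abcg1 and Scd2) reversed in none of 143 recomputations. These genes were picked from this contrast and their groups did not overlap. A reversal was therefore hardly possible, and nothing is read from its absence. Pparg, Nr1h3 and Lpl were not recomputed. Under the alternatives Plin2 lay between 1.91 and 2.15 on FPKM, Abcg1 between 1.55 and 1.79, Scd2 between -1.85 and -1.64, Fabp5 between 0.39 and 0.65, and Abca1 on counts between 0.83 and 1.46, under 2-fold without control replicate 3 (0.83) and with library size only (0.98). The estimates for Fabp4 (4.88 to 11.52) and Cd36 (2.26 to 9.30) on FPKM have controls at 0 and grow as the pseudocount shrinks.

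Of 628 recomputed values of the named pathway genes and Ctcf, 15 no longer passed the threshold (Lmf1 and Bscl2 on counts, Apoe on FPKM) and 0 reversed. The pathway genes were named for passing with groups that did not overlap, so the lack of reversals is no independent check. Without 1 sample at a time, 6577 to 7919 genes passed on FPKM and 4610 to 5662 on counts, and the pathway genes called were 65 to 78 and 44 to 52. With the replicate number as a block, 7137 genes passed on FPKM and 4889 on counts, compared with 7281 and 5074 without it. The same-numbered samples did not deviate together (r of -0.041, 0.018 and 0.040), so the numbers were not taken as a pairing. The depth of control replicate 2 limits low counts, and genes with shared exons, such as Fabp5, Cd36 and Pparg, could not be read from the count table.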
